A study of Mus musculus with 12 samples.

Results

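Induced pluripotent stem cells (iPSC) made from mouse fibroblasts were compared with embryonic stem cells (ESC) over the genes on which both iPSC arrays lay outside both ESC arrays, on the same side. Of 19938 genes measured, 11074 were kept, each above the median of its array on at least 2 of the 4 arrays. Among these, 2597 genes met the rule (23.5%): 1258 lay above both ESC arrays (11.4%) and 1339 lay below both (12.1%). A further 2538 genes that met it did not pass the filter. The separation of the nearest iPSC and ESC values, called the gap here, was mostly small. Its median was 0.09 on the log2 scale, or 1.06-fold, and 1419 of the 2597 genes (54.6%) had a gap under 0.1.

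The iPSC arrays were of WT (Mbd3+/+) and Mbd3flox/- cells, both carrying a doxycycline (DOX)-inducible set of the factors Oct4, Sox2, Klf4 and Myc (OSKM). The ESC arrays were of Mbd3-/- cells and of WT V6.5 cells, whose labels name no such transgene. Both pairs of arrays came from cells in serum replacement medium with LIF and the inhibitor pair known as 2i, on irradiated feeder fibroblasts (MEF, mouse embryonic fibroblasts), so feeder RNA can be present on each. The other 8 of the 12 arrays were of MEF (3) and of MEF under DOX (5), and there was 1 array for each genotype and stage. The labels call both pluripotent states by genotype but name no replicate culture, so genotype, line, transgene and culture cannot be told apart from the spread within a state. The WT ESC array was reused from an earlier series.

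Mouse ESC and iPSC in 2i are held in the naive state, in which MEK-ERK signalling is blocked, Wnt signalling is raised by inhibition of GSK3, and DNA methylation is low. Reprogrammed cells can keep or acquire differences from ESC at imprinted genes, at genes under DNA methylation and in genes of the donor cell. Zinc-finger repressor genes of the KRAB class, many in clusters of near copies, silence transposons and imprinted regions in such cells.

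The cells carried the pluripotency markers that their labels imply. Nanog had 12.53 and 12.71 log2 units in WT and flox/- iPSC, against 12.71 and 12.39 in -/- and WT ESC. Pou5f1, which encodes Oct4, had 12.04 and 12.15 in iPSC and 11.95 and 12.19 in ESC. Sox2 had 12.38 and 12.44 in iPSC and 12.50 and 12.22 in ESC. On each of these genes the values of iPSC and ESC overlapped. Mbd3 had 9.20 in WT iPSC and 8.73 in flox/- iPSC, against 6.75 in -/- ESC and 9.33 in WT ESC, so the lowest of the 4 values was in -/- ESC. In MEF it had 9.17, 8.91 and 8.11 in WT, flox/- and -/- cells, so the array labelled -/- MEF was lower than the other MEF by less than -/- ESC was below WT ESC.

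The 4 arrays differed as much within a state as between states. The -/- and WT ESC arrays were the least alike, with 1090 genes at least 2-fold apart (9.84% of the 11074). The WT and flox/- iPSC arrays had 542 such genes (4.89%). Across states, WT iPSC and WT ESC had 437 (3.95%) and flox/- iPSC and -/- ESC also had 437 (3.95%). The other pairs had more, 683 for WT iPSC and -/- ESC (6.17%) and 725 for flox/- iPSC and WT ESC (6.55%). In the limma fit of iPSC against ESC, 0 genes passed at a Benjamini-Hochberg adjusted p under 0.05 (0.0%), with 169 genes at an unadjusted p under 0.05. The lowest unadjusted p was 0.000406, for Apobec2, and the lowest adjusted p was 0.9999. An exact two-sided permutation test of 2 arrays against 2 cannot give a p below 0.3333. Each gene below is therefore a description of these arrays, with the standard error (SE) of the limma fit beside the difference of the means, and no p is given.

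**Figure D1:**
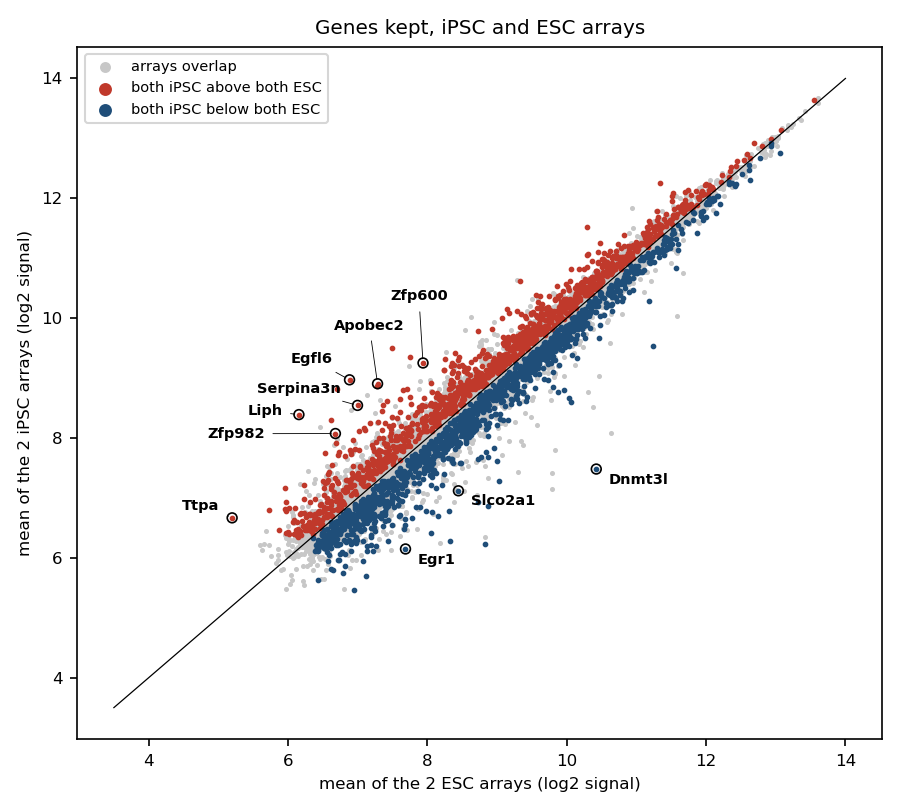
Mean log2 signal of the 2 iPSC arrays (vertical) against that of the 2 ESC arrays (horizontal) for the 11074 genes kept, 1 point per gene. Red and blue points are genes on which both iPSC arrays lay above or below both ESC arrays, the line marks equality, and the 10 ringed genes had a gap of at least 2-fold, with Dnmt3l farthest below the line.

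Of the 11074 genes, 10 had a gap of at least 1 log2 unit, that is at least 2-fold between the nearest arrays (0.0903%). Of these, 7 lay above ESC (0.0632%) and 3 lay below (0.0271%). At a gap of at least 0.5 there were 30 genes above (0.271%) and 37 below (0.334%).

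The genes farthest above ESC included secreted proteins, a lipase and a pair of zinc-finger genes. Egfl6, which encodes a secreted matrix protein with EGF repeats, had 8.96 and 8.98 in WT and flox/- iPSC, against 6.49 and 7.27 in -/- and WT ESC. Its gap of 1.69 was the widest of those above ESC, and its means differed by 2.09 ± 0.31 SE, or 4.25-fold. Egfl6 had 8.78, 10.55 and 9.92 in WT, flox/- and -/- MEF, so fibroblast RNA can carry it. The part of fibroblast RNA in its iPSC and ESC values was not tested. Liph, a lipase that releases lysophosphatidic acid, had 8.70 and 8.08 in iPSC against 6.49 and 5.82 in ESC. Apobec2, a member of the cytidine deaminase family best known from muscle, had 8.91 and 8.90 in iPSC against 7.26 and 7.32 in ESC. The arrays of each state lay close together for Apobec2, and its mean difference of 1.62 ± 0.17 SE was 3.07-fold.

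Serpina3n, a secreted inhibitor of serine proteases, had 8.51 and 8.58 in iPSC, against 7.15 and 6.85 in ESC. Its level in MEF was spread widely, at 6.91, 12.04 and 12.49 in WT, flox/- and -/- cells, so fibroblast RNA can carry it. Ttpa, the liver transfer protein for vitamin E, had 6.66 and 6.67 in iPSC against 5.03 and 5.37 in ESC. Both iPSC values of Ttpa lay just above the array medians, which ran between 6.26 and 6.38 over the 12 arrays. The ESC values lay nearer the lower quartiles of 4.64 to 4.73, where background limits the fold. Ttpa thus passed the filter through the iPSC arrays alone and could be kept only as a gene higher in iPSC.

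Between a gap of 0.5 and 1 stood Pramel6, a PRAME-family gene whose mouse protein promotes loss of DNA methylation in naive ESC. It had 8.00 and 8.61 in iPSC, against 7.04 and 6.18 in ESC. The iPSC arrays lay above both ESC arrays, but the ESC values differed from each other by nearly as much as the gap of 0.96. Of the other 13 Pramel genes measured, Pramel12 and Pramel13 passed the filter, and both overlapped between states. Their neighbours in the order of gaps were the protease inhibitor gene A2m (0.82), the ectonucleotidase gene Enpp3 (0.80), Etaa1 (0.79), whose protein activates the DNA damage kinase ATR, and the peptide transporter gene Slc15a1 (0.79). Cyp2b23, a cytochrome P450 (0.75), Qpct, a glutaminyl cyclase (0.70), and the metalloprotease gene Mep1b (0.69) closed the 15 widest gaps above ESC. For Cyp2b23 the iPSC arrays themselves stood apart, at 7.80 in WT and 9.84 in flox/-, against 7.05 and 6.35 in -/- and WT ESC.

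Zfp600 and Zfp982 belong to a group of zinc-finger genes on chromosome 4 with closely related sequences. Zfp600 had 9.18 and 9.32 in WT and flox/- iPSC, against 7.91 and 7.97 in -/- and WT ESC, a gap of 1.21. Zfp982 had 8.25 and 7.90 in iPSC against 6.55 and 6.81 in ESC, a gap of 1.10. Both genes were low in MEF, Zfp600 at 3.75, 3.90 and 3.42 and Zfp982 at 4.64, 4.00 and 4.08. Other genes of the group did not separate the states. Zfp979 had 10.52 and 10.16 in iPSC against 9.87 and 10.18 in ESC, and Zfp980 had 10.68 and 11.20 in iPSC against 10.56 and 10.83 in ESC. Zfp985, Zfp991 and Zfp933 also overlapped.

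The promoters of these genes are printed because they show how alike the copies are while their signals differed. Each line gives the 250 bases before the annotated start, from RefSeq on GRCm38.p6. Capitals mark the bases of Zfp982 and Zfp979 that did not match Zfp600 in a global alignment. Of the 250 bases, 219 of Zfp982 (87.6%) and 241 of Zfp979 (96.4%) matched.
Zfp600, chr4:146156577-146156826 (plus strand): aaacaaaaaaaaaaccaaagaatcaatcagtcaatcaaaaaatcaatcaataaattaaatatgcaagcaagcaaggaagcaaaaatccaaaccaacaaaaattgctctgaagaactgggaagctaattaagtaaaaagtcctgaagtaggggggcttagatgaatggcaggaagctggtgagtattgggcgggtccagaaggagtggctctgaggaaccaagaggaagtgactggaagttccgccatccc
Zfp982, chr4:147492167-147492416 (plus strand): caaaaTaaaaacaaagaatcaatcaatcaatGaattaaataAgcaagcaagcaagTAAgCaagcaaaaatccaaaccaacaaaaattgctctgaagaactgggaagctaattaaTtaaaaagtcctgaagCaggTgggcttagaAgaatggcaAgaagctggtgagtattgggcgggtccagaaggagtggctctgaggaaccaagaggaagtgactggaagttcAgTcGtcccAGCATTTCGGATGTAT
Zfp979, chr4:147642509-147642758 (minus strand): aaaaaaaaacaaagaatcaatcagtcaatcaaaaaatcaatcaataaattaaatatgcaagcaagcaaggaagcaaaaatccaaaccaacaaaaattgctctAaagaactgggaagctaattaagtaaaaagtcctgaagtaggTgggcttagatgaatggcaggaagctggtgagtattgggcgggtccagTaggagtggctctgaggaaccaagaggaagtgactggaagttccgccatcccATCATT

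In the same alignment Zfp980 matched at 226 bases (90.4%), Zfp985 at 216 (86.4%) and Zfp933 at 145 (58.0%). Zfp979, the copy with the most matching promoter, thus overlapped between states, and the more distant Zfp982 did not. Signals of near copies may be shared between their probe sets, so values for a single gene of this group are uncertain.

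Genes with a number after the letters Zfp were counted together after the values of Zfp600 and Zfp982 had been seen. They were chosen by name alone, and whether each is of the KRAB class or a near copy was not checked. Of 276 kept, 74 lay above both ESC arrays (26.8%, beside 11.4% of all genes kept) and 23 lay below (8.33%, beside 12.1%). Their median difference was 0.10, beside -0.01 over all genes kept. The mean signal of the 276 genes was 8.30 and 8.24 in WT and flox/- iPSC, against 8.12 and 8.18 in -/- and WT ESC. Taken pair by pair, 170 of the 276 were higher in WT iPSC than in WT ESC, and 180 were higher in flox/- iPSC than in -/- ESC. Over all 11074 genes these counts were 5164 and 5626. Without WT iPSC, 109 of the 276 lay above (39.5%, beside 24.1% of all genes), and without flox/- iPSC 124 did (44.9%, beside 25.5%). Without -/- ESC the count was 130 (47.1%, beside 32.8%) and without WT ESC it was 149 (54.0%, beside 36.6%). The 74 genes above both ESC arrays are higher in each pair by the rule itself, and leaving out an array can only add to them. The counts by pair and with an array left out reuse the arrays of the rule, so they are no independent test of it. A gene family with many near copies holds fewer independent values than its count of genes.

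A microRNA gene was also among the genes above ESC with a gap of at least 0.5. Mir363 lies in a cluster on the X chromosome and had 6.85 and 6.75 in WT and flox/- iPSC, against 5.34 and 6.13 in -/- and WT ESC. It passed the filter through the iPSC arrays alone, so it could be kept only as a gene higher in iPSC. The labelling protocol starts from oligo(dT), so the signal is no measure of the mature microRNA. The mature product shares its seed, the bases that pair with targets, with microRNAs of other loci. RefSeq lists 6 mature names with that seed, of 1679, and they are printed to show what the products share, with the seed, bases 2 to 8, in capitals and with GRCm38.p6 coordinates.
miR-363-3p, chrX:52741697-52741718 (minus strand): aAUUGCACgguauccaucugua
miR-92a-3p, chrX:52741854-52741874 (minus strand): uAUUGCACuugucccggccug
miR-25-3p, chr5:138165332-138165353 (minus strand): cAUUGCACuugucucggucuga
miR-92b-3p, chr3:89227126-89227147 (minus strand): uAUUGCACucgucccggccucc
miR-32-5p, chr4:56895272-56895293 (minus strand): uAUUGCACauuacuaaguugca
miR-367-3p, chr3:127545779-127545800 (plus strand): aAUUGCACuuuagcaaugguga

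The genes of the other seed-sharing microRNAs did not show the gap of Mir363. Mir25 had 7.95 and 8.34 in iPSC against 7.80 and 8.24 in ESC, and Mir92b had 7.06 and 7.37 in iPSC against 7.20 and 7.53 in ESC. Mir32 overlapped too, at 5.38 and 4.82 in iPSC against 4.42 and 5.54 in ESC. Mir367, of a cluster known from pluripotent cells, had 3.61 and 3.66 in iPSC against 3.59 and 3.70 in ESC, well below the lower quartiles. Mir92-2, the X-linked neighbour of Mir363 that gives miR-92a-3p, had 4.58 and 4.50 in iPSC against 4.35 and 4.38 in ESC. Its iPSC values thus lay above both ESC values, but all were below the lower quartile of their array and it did not pass the filter. The neighbours Mir19b-2, Mir20b and Mir106a overlapped and did not pass the filter either.

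**Figure D2:**
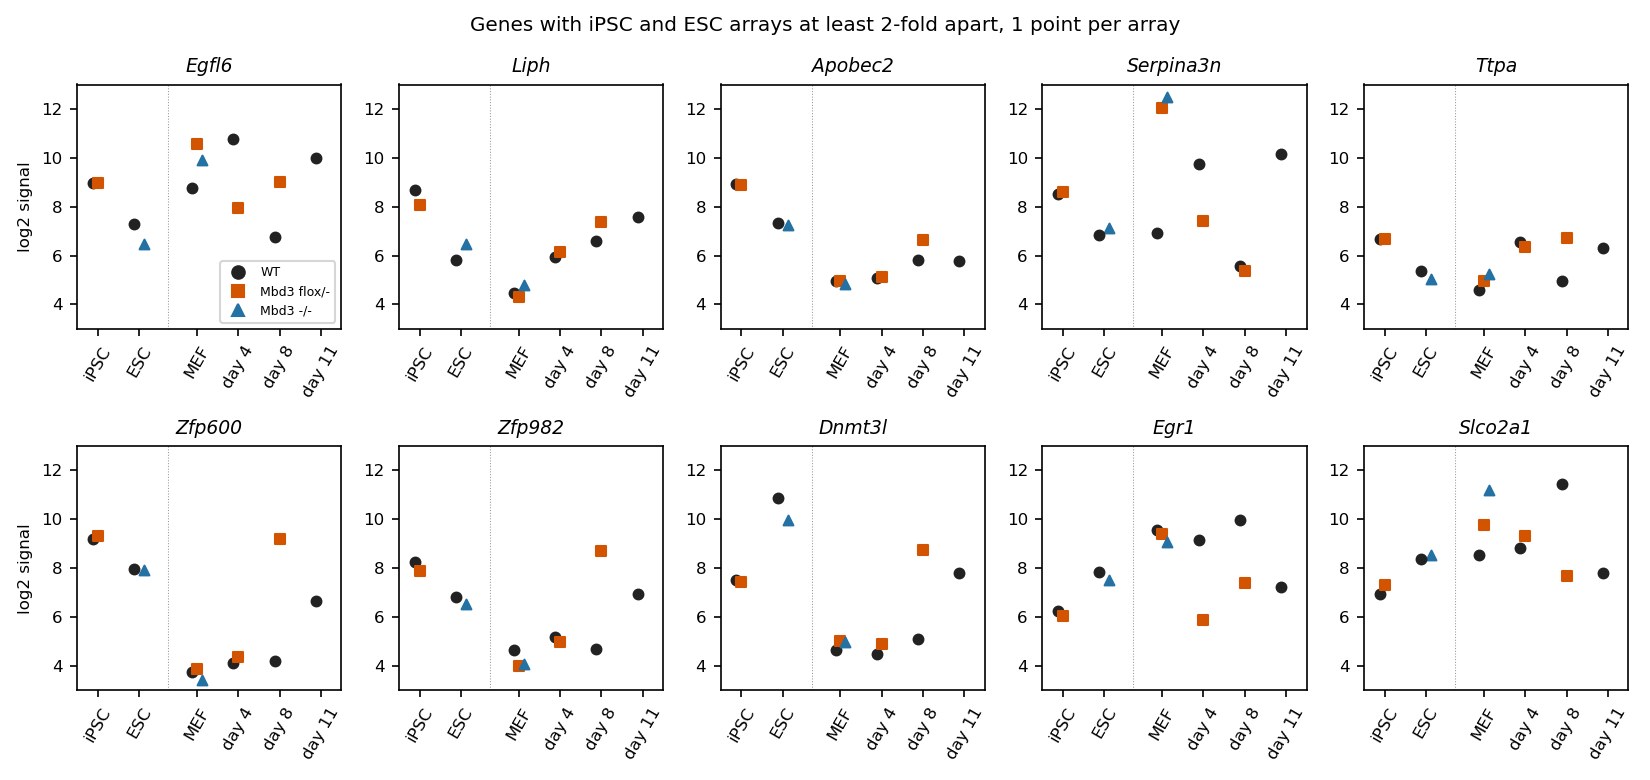
Log2 signal (vertical) of the 10 genes with iPSC and ESC arrays at least 2-fold apart, 1 point per array, with iPSC and ESC to the left of the dotted line and MEF and days of DOX to its right; the symbol gives the Mbd3 genotype. Dnmt3l reached 8.76 in flox/- cells at day 8 and 7.82 in WT cells at day 11, above both iPSC arrays.

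Dnmt3l had the widest gap of all genes kept. It encodes a partner of the DNA methyltransferases Dnmt3a and Dnmt3b that has no enzyme activity of its own and is needed for imprinting in germ cells. Its signal was 7.52 and 7.45 in WT and flox/- iPSC, against 9.96 and 10.89 in -/- and WT ESC. The gap was -2.44, or 5.42-fold, and the means differed by -2.94 ± 0.36 SE, or 7.69-fold. It was low in MEF, at 4.66, 5.03 and 4.97, and the cultures under DOX with the highest values, flox/- at day 8 (8.76) and WT at day 11 (7.82), lay above both iPSC arrays. The other 3 DOX arrays had 4.48, 4.89 and 5.12.

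Of the 12 other DNA methylation enzymes kept, 3 lay above both ESC arrays and 1 lay below (11.4% and 12.1% of all genes did), with a median difference of 0.13. Dnmt1, the maintenance methyltransferase, had 11.24 and 11.14 in iPSC against 10.90 and 10.95 in ESC, a gap of 0.19. Tet3, which oxidises methylated cytosine, had 5.99 and 6.39 in iPSC against 7.66 and 6.61 in ESC. Zfp57, a KRAB zinc-finger protein that guards imprints, and Tet2 lay above ESC by gaps of 0.05 and 0.01. Dnmt3a and Dnmt3b, the partners of Dnmt3l, overlapped. Dnmt3a had 8.04 and 8.17 in iPSC against 9.0 and 7.36 in ESC, and Dnmt3b had 8.22 and 7.45 in iPSC against 6.72 and 8.46 in ESC. For both enzymes the -/- and WT ESC arrays held the extreme values.

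Several genes that respond quickly to ERK signalling, or that encode the inhibitors it induces, lay below ESC. Of 14 kept on the list of MAPK feedback targets, 8 lay below both ESC arrays (57.1%, beside 12.1% of all genes) and 0 lay above (0.0%, beside 11.4%). Their median difference was -0.16, beside -0.01. By the means 13 of 14 were lower in iPSC, beside 5748 of all 11074 genes, and the 8 below both ESC arrays are lower by the rule itself. Egr1 and Ier3 passed the filter through the ESC arrays alone, so they could be kept only as genes lower in iPSC. Of the other 12, 6 lay below, beside 11.9% of all genes kept through other arrays. Dusp4, a MAP kinase phosphatase and the 15th gene of the list, did not pass the filter. With no filter 9 of the 15 lay below (beside 13.5% of all 19938 genes) and 0 lay above (beside 12.3%).

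Egr1, an immediate early transcription factor, had 6.23 and 6.06 in WT and flox/- iPSC, against 7.52 and 7.85 in -/- and WT ESC. The iPSC values lay just below the array medians, and the means differed by -1.54 ± 0.21 SE, or 2.90-fold. Fos, the AP-1 subunit that follows growth factor signals within minutes, had 6.14 and 6.84 in iPSC against 7.44 and 7.88 in ESC. Ier3, another immediate early gene, had 6.26 and 6.14 in iPSC against 6.82 and 7.70 in ESC. Spry4, an inhibitor of receptor tyrosine kinase signalling, had 8.98 and 8.96 in iPSC against 9.91 and 9.54 in ESC. The states were apart on each of these 4 genes, by gaps of 0.55 to 1.29.

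The other members differed by less. Fosl1, an AP-1 subunit, had a gap of -0.22, and the phosphatase gene Dusp5, Spred1 and Spry1 had gaps of -0.12, -0.05 and -0.05. Dusp6, Etv4 and Etv5, which follow ERK activity in ESC, overlapped, as did Phlda1, Spry2 and Spred2. Dusp6 had 8.62 and 9.19 in iPSC against 8.66 and 9.35 in ESC.

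**Figure D3:**
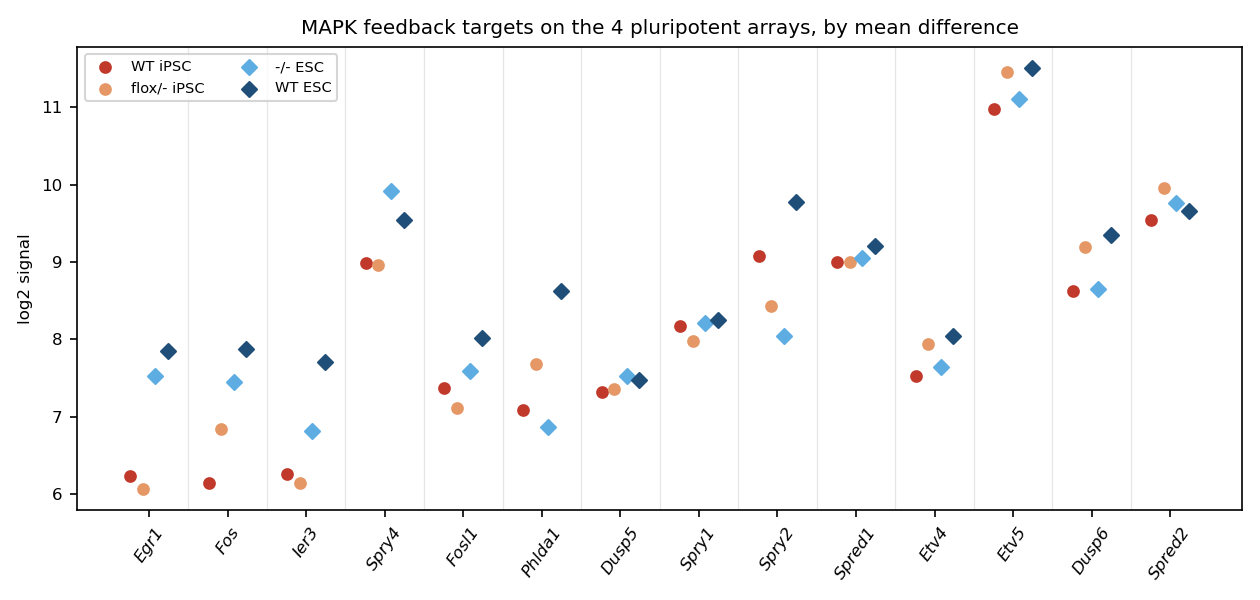
Log2 signal (vertical) of the 14 kept MAPK feedback targets on the 4 pluripotent arrays, iPSC as circles left of ESC as diamonds, ordered by the difference of the means. Egr1, Fos, Ier3 and Spry4 show both circles well below both diamonds, and the genes to the right overlap or lie close.

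The count depended on the arrays used. Each of the 14 genes was lower in WT iPSC than in WT ESC, so 0 of 14 were higher, while 6 of 14 were higher in flox/- iPSC than in -/- ESC. Over all 11074 genes 5164 and 5626 were higher in these pairs. Without the -/- ESC array 13 of 14 lay below (92.9%), when 40.4% of all genes did. Several of these genes were high in fibroblasts, such as Egr1 at 9.58, 9.40 and 9.06 in WT, flox/- and -/- MEF. The 29 measured fibroblast genes had a mean signal of 9.09 and 7.14 in WT and flox/- iPSC, against 8.09 and 9.08 in -/- and WT ESC. The mean covers members that ran in opposite directions, such as Dcn at 11.04 in WT iPSC against 6.35 in WT ESC, and Tagln at 6.84 against 10.69. The part of fibroblast RNA in the MAPK values was not tested.

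The promoters of Fos and Dusp5 are shown as examples of signal-responsive promoters among the genes below ESC. RefSeq promoters were found for 5 of the 8 genes below both ESC arrays. The 250 bases before the start were searched on both strands for TGACG, the core of the cyclic AMP response element, for TATAAA, for the AP-1 motif TGANTCA, for the EGR motif GCGNGGGCG, and for the CArG box, which serum response factor binds. Capitals mark TGACG and TATAAA in Fos and the CArG boxes, which adjoin each other, in Dusp5.
Fos, chr12:85473640-85473889 (plus strand): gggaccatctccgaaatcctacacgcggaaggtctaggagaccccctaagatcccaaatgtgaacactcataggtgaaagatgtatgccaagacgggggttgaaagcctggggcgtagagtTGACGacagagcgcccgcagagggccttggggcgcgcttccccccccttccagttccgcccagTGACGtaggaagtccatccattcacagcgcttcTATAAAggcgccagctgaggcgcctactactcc
Dusp5, chr19:53528895-53529144 (plus strand): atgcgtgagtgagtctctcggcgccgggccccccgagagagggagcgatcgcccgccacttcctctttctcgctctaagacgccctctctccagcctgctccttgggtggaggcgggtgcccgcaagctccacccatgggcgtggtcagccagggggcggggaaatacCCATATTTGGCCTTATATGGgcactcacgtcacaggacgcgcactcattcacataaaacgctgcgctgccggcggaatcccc

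TGACG was in 2 of the 5 promoters, Fos and Dusp5, and in 17.8% of all 32851 promoter windows. TATAAA was in 1 of 5, Fos, and in 12.4% of all. A CArG box was in 1 of 5, Dusp5, and in 1.47% of all. The AP-1 motif was in 0 of 5 and 6.75% of all, and the EGR motif in 0 of 5 and 4.7% of all. A match describes these letters in this window and nothing about binding, and bases farther upstream were not searched. A gene counted when any of its windows matched, while the percent counts single windows.

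Some markers of differentiated lineages, extra-embryonic and other, lay below ESC. Of 10 kept primitive endoderm genes, 4 lay below both ESC arrays (40.0%, beside 12.1% of all genes) and 0 lay above (beside 11.4%), with a median difference of -0.56. Gata4, a transcription factor of primitive endoderm, had 6.65 and 6.52 in WT and flox/- iPSC against 7.37 and 7.08 in -/- and WT ESC. The basement membrane genes Col4a1, Col4a2 and Lama1 followed, with gaps of -0.74, -0.44 and -0.39. Col4a1 had 6.59 and 6.51 in iPSC against 7.65 and 7.33 in ESC, and 9.34, 9.40 and 9.15 in MEF, so it is not specific to endoderm. Gata6 overlapped, at 6.98 and 7.64 in iPSC against 8.58 and 6.94 in ESC, as did Dab2 and Pdgfra. Sox17 did not pass the filter. The 16 measured primitive endoderm genes averaged 6.82 and 6.69 in WT and flox/- iPSC, against 7.33 and 6.91 in -/- and WT ESC. The -/- ESC array thus held the highest of these means.

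Of 9 kept trophoblast genes, 3 lay below both ESC arrays (33.3%, beside 12.1% of all genes) and 0 above (beside 11.4%). These were the T-box gene Eomes and the simple epithelial keratin genes Krt8 and Krt18. The other 6 overlapped, and by the means 2 of the 9 were higher in iPSC, beside 5325 of all 11074 genes. The 15 measured trophoblast genes averaged 6.54 and 6.78 in WT and flox/- iPSC, against 6.77 and 7.47 in -/- and WT ESC. These list means overlapped between the states. Krt8 had 8.26 and 8.93 in iPSC against 9.38 and 10.74 in ESC, and Krt18 had 6.51 and 7.05 in iPSC against 7.18 and 9.43 in ESC. In both the WT ESC value stood well above those of the iPSC and -/- ESC arrays. Both keratin genes are also on the epithelial list, where 3 of 16 lay below (18.8%, beside 12.1%) and 2 above (12.5%, beside 11.4%). The third of those below was Spint2, a protease inhibitor gene, by 0.19, and Elf3, an epithelial transcription factor gene, lay above by 0.16.

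Other lineage lists held few kept genes. Of 6 muscle genes 2 lay below (33.3%, beside 12.1%) and 0 above (beside 11.4%), with a median difference of -0.91. These were Mylpf, a myosin light chain gene, with a gap of -0.35, and the intermediate filament gene Des, with a gap of -0.03. The 11 measured muscle genes averaged 6.515 and 6.363 in WT and flox/- iPSC, against 6.561 and 8.078 in -/- and WT ESC. The WT ESC array thus stood apart from the -/- ESC array as well as from iPSC. The 4 keratinocyte genes overlapped, and each had a lower mean in iPSC, beside 5748 of all 11074 genes. Their median difference was -0.58. Of 6 neural genes 1 lay below (16.7%, beside 12.1%), the neuronal tubulin gene Tubb3 by 0.21, and 0 above (beside 11.4%). Of 3 endothelial genes 1 lay above (33.3%, beside 11.4%) and 0 below (beside 12.1%). This was Vwf, the von Willebrand factor gene, at 7.42 and 7.19 in iPSC against 6.80 and 6.33 in ESC. Differences between these lists were not tested.

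Ligands, receptors and effectors of developmental pathways were scattered among the lower genes. Dkk1, a secreted Wnt antagonist, had 5.74 and 6.15 in iPSC against 6.97 and 7.16 in ESC. Nkd1 and Nkd2, feedback inhibitors in the Wnt pathway, had gaps of -0.24 and -0.80. On the list of Wnt targets and modulators 2 of 8 kept genes, Dkk1 and Nkd1, lay below (beside 12.1% of all genes). On that list 0 lay above (beside 11.4%), and the median difference was 0.06. Dkk1, and Nkd2 outside the list, passed the filter through the ESC arrays alone, so they could be kept only as genes lower in iPSC. Of the other 7 on the list, 1 lay below, beside 11.9% of all genes kept through other arrays. Gli1, the transcriptional effector and target of Hedgehog signalling, had 6.71 and 6.62 in iPSC against 8.02 and 7.55 in ESC. It had 6.03, 6.15 and 6.19 in MEF, below the 4 pluripotent arrays. Of 18 TGF-beta, Nodal and BMP genes, 2 lay above (11.1%, beside 11.4%), Inhbb with a gap of 0.34 and Lefty1 with 0.04. Tgfb1 alone lay below (5.56%, beside 12.1%), with a gap of -0.46, and the median difference was -0.30.

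The other genes among the 15 widest gaps below ESC belonged to no list. Slco2a1, the prostaglandin transporter, had 6.93 and 7.30 in iPSC against 8.53 and 8.37 in ESC, the third gap of at least 2-fold. The betaine and GABA transporter gene Slc6a12 had 6.09 and 6.14 in iPSC against 7.34 and 7.11 in ESC. Glipr1 had 6.52 and 7.34 in iPSC against 8.32 and 9.14 in ESC. Coch, which encodes a secreted protein of the inner ear, had 5.83 and 5.91 in iPSC against 6.83 and 6.80 in ESC. The pantetheinase gene Vnn1 (-0.86), the natriuretic peptide clearance receptor gene Npr3 (-0.84), Rflnb (-0.83), the calcium sensor gene Ncs1 (-0.72) and Stard13 (-0.70) followed. Slc6a12, Coch, Vnn1 and Stard13 passed the filter through the ESC arrays alone, so they could be kept only as genes lower in iPSC. Hmox1, which breaks down haem under oxidative stress, had 10.41 and 10.16 in iPSC against 11.09 and 11.26 in ESC. Its gap was the widest on the glutathione and detoxification list. On that list 3 of 12 lay below (beside 12.1% of all genes) and 1 above (beside 11.4%).

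**Figure D4:**
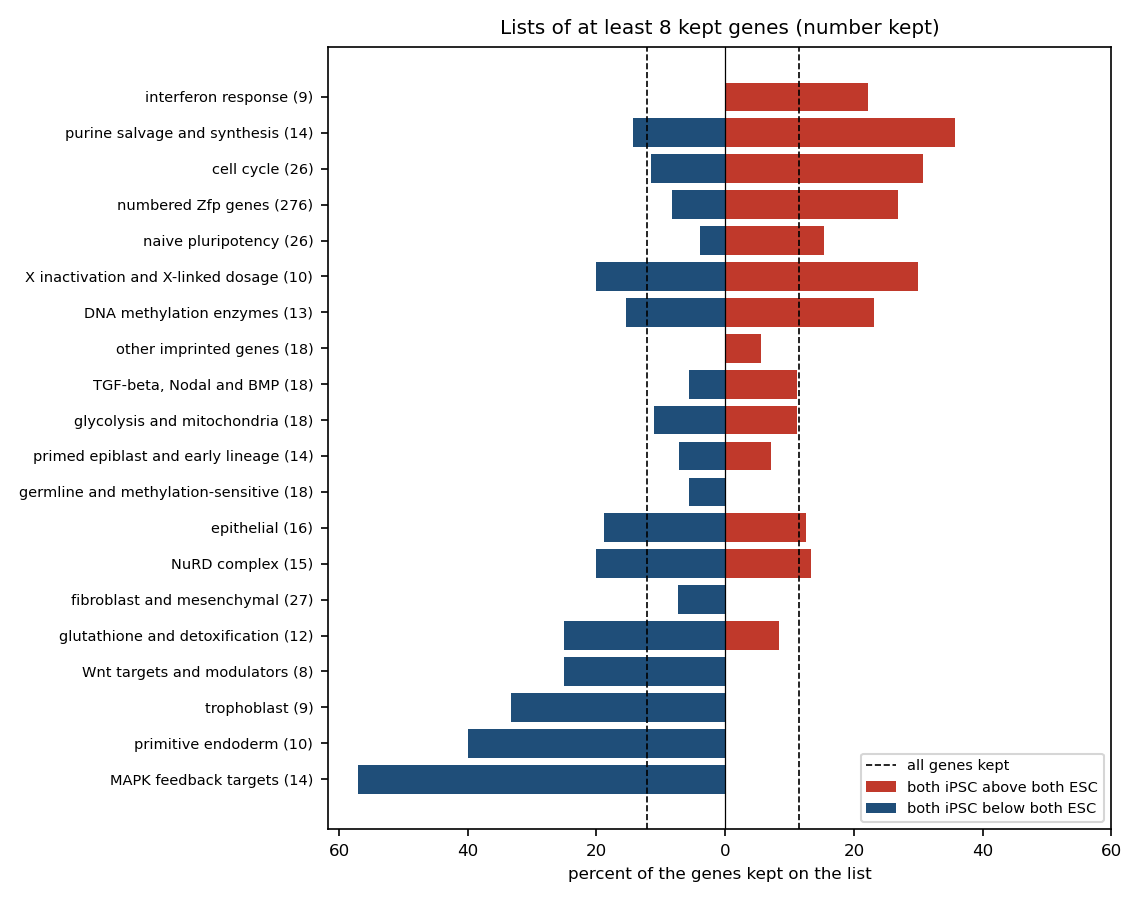
Percent of the kept genes of each list on which both iPSC arrays lay below (blue, left) or above (red, right) both ESC arrays, for lists of at least 8 kept genes, with the number kept in brackets. The dashed lines mark all genes kept, 12.1% below and 11.4% above; the MAPK list reaches 57.1% below.

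Genes of the naive pluripotency network were close between the states. Of 26 kept, 21 overlapped, 4 lay above both ESC arrays (15.4%, beside 11.4% of all genes) and 1 lay below (3.85%, beside 12.1%), with a median difference of 0.11 (-0.01 over all genes). The list averaged 10.50 and 10.48 in WT and flox/- iPSC, against 10.36 and 10.49 in -/- and WT ESC. Klf4, which is also 1 of the transgenes, was the gene below, at 10.15 and 10.08 in iPSC against 10.45 and 10.86 in ESC. Klf5, another Krüppel-like factor, had 11.86 and 11.83 in iPSC against 11.65 and 11.55 in ESC. Il6st, the signalling subunit of the LIF receptor, had 10.81 and 10.57 in iPSC against 10.41 and 10.31 in ESC. Nr5a2 and Socs3 lay above by gaps of 0.03 and 0.01. Myc overlapped between states, with 7.97 and 8.15 in iPSC inside the 7.08 and 9.57 of -/- and WT ESC.

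Several members of the purine and cell cycle lists lay above ESC by small gaps. In the purine list 5 of 14 lay above (35.7%, beside 11.4% of all genes) and 2 below (14.3%, beside 12.1%), with a median difference of 0.11. Paics, an enzyme of new purine synthesis, had 12.98 and 12.86 in iPSC against 12.68 and 12.70 in ESC. Adss, Prps1, Ppat and Gart also lay above, by gaps of 0.13, 0.06, 0.02 and 0.02, and Impdh1 and Atic lay below. Hprt, the salvage enzyme of the same list, was high on both WT arrays and low on the flox/- and -/- arrays. Its signal was 10.96 and 4.94 in WT and flox/- iPSC, against 5.87 and 10.94 in -/- and WT ESC. It was therefore no gene of the comparison, and whether the purine genes moved with it was not tested.

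In the cell cycle list 8 of 26 lay above (30.8%, beside 11.4% of all genes) and 3 below (11.5%, beside 12.1%), with a median difference of 0.06. Ccnd3, a D-type cyclin, had 11.36 and 11.13 in iPSC against 10.36 and 10.59 in ESC, a gap of 0.54. The replication licensing genes Mcm4 and Mcm3 had gaps of 0.17 and 0.11. Cdkn2a, which encodes cell cycle inhibitors, had 7.39 and 7.40 in iPSC against 7.75 and 7.67 in ESC. For interferon response, 2 of 9 kept genes lay above (22.2%, beside 11.4%) and 0 below (beside 12.1%), Oas1a by 0.47 and Ifitm3 by 0.08. Ifitm3 had 12.25 and 12.27 in iPSC against 10.50 and 12.17 in ESC, so the WT ESC value set its gap, and the -/- ESC value most of its mean difference.

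Subunits of NuRD, the repressor complex that holds Mbd3, and genes of energy metabolism differed little. Of 15 NuRD genes 2 lay above (13.3%, beside 11.4%) and 3 below (beside 12.1%). The lower ones were Gatad2a (gap -0.13) and the remodelling ATPase genes Chd3 (-0.12) and Chd4 (-0.04), and Mta2 lay above by 0.07. Of 18 genes of glycolysis and mitochondria 2 lay above and 2 below (11.1% each, beside 11.4% and 12.1%). The cytochrome oxidase subunit gene Cox7a1 and the glucose transporter gene Slc2a1 lay above by 0.23 and 0.14, and Ndufa4 and the phosphofructokinase gene Pfkl below by 0.15 and 0.05.

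Fibroblast genes differed more between arrays than between states. Of 27 kept, 25 overlapped, 2 lay below (7.41%, beside 12.1% of all genes) and 0 lay above (beside 11.4%), and the median difference was -0.45. Dcn, a matrix proteoglycan, had 11.04 and 5.06 in WT and flox/- iPSC against 9.34 and 6.35 in -/- and WT ESC. The matrix gene Postn had 10.71 and 5.38 in iPSC against 8.11 and 9.39 in ESC. Tagln and Acta2, smooth muscle and myofibroblast genes, were those below both ESC arrays, Tagln at 6.84 and 6.89 in iPSC against 7.06 and 10.69 in ESC. Without WT iPSC, 20 of the 27 lay below (74.1%, beside 27.5% of all genes), and without -/- ESC 14 did (51.9%, beside 40.4%). Without flox/- iPSC, 12 lay above (beside 25.5%) and 2 below (beside 26.5%). Without WT ESC, 7 lay above (beside 36.6%) and 2 below (beside 33.4%). In these bulk samples fewer fibroblasts and less RNA per fibroblast cannot be told apart. The part of feeder or donor fibroblasts in other genes that MEF express was not tested.

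Y-linked genes, Xist and imprinted genes differed between the lines of each state. Eif2s3y, on the Y chromosome, had 5.04 and 9.78 in WT and flox/- iPSC against 10.37 and 9.21 in -/- and WT ESC. Usp9y had 4.13 and 5.72 in iPSC against 8.45 and 4.06 in ESC. Of the 4 Y-linked genes kept 0 lay outside (beside 23.5% of all genes). Xist overlapped, at 9.78 and 7.12 in iPSC against 7.40 and 8.95 in ESC. Of the 10 genes on the list of X inactivation and X-linked dosage, 3 lay above (beside 11.4% of all genes) and 2 below (beside 12.1%). Rlim, a ubiquitin ligase that promotes X inactivation, had 9.58 and 9.58 in iPSC against 10.45 and 9.80 in ESC. Huwe1, another ubiquitin ligase, had 11.56 and 11.56 in iPSC against 11.60 and 11.60 in ESC, a gap of -0.04. The histone demethylase gene Kdm6a and the translation factor gene Eif2s3x each lay above by 0.13. In the Dlk1-Dio3 imprinted cluster, known for silencing in some iPSC lines, Meg3 had 9.12 and 9.68 in iPSC against 8.28 and 10.58 in ESC. Rian had 5.50 and 6.69 in iPSC against 4.84 and 7.86 in ESC, so both ESC arrays enclosed the iPSC values on both genes. Of the cluster's 4 genes kept, Dlk1 lay below with a gap of -0.01. Among 18 other imprinted genes 1 lay above (5.56%, beside 11.4%), Gatm by 0.09, and 0 lay below (beside 12.1%).

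Chromosome 6 held an uneven share of the lower genes. Of 514 kept there, 130 lay below both ESC arrays (25.3%, beside 12.1% of all genes) and 17 lay above (3.31%, beside 11.4%), with a median difference of -0.16. On the other chromosomes the share below ran between 7.59% on chromosome 15 and 14.4% on chromosome 7. The 130 genes had a median gap of -0.12, and 3 of them had a gap of at least 0.5. Over genes above the median on all 12 arrays, the median deviation of chromosome 6 genes from their own mean was 0.34 on the -/- ESC array, and between -0.08 and 0.08 on the other 11. Leaving out an array moved these counts, as it did those of all genes. Without -/- ESC, 187 of the 514 lay below WT ESC (36.4%, beside 40.4% of all genes) and 188 lay above (beside 32.8%). Without WT ESC, 372 lay below (72.4%, beside 33.4%). Without WT iPSC 196 lay below (38.1%, beside 27.5%), and without flox/- iPSC 217 did (42.2%, beside 26.5%).

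Chromosome 8 deviated on an array of each state, by 0.25 in WT iPSC and 0.25 in -/- ESC, against -0.11 to 0.01 on the other 10 arrays. Of its 607 genes kept, 34 lay above (5.6%, beside 11.4% of all genes) and 76 below (12.5%, beside 12.1%). Genes described here on these chromosomes include Slc6a12, A2m, Tet3, Impdh1, Chd4, Ndufa4 and Vwf on chromosome 6. On chromosome 8 they include Col4a1, Col4a2, Hmox1, Nkd1, Gatad2a and Tubb3. What part the chromosome deviation has in their values was not tested.

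**Figure D5:**
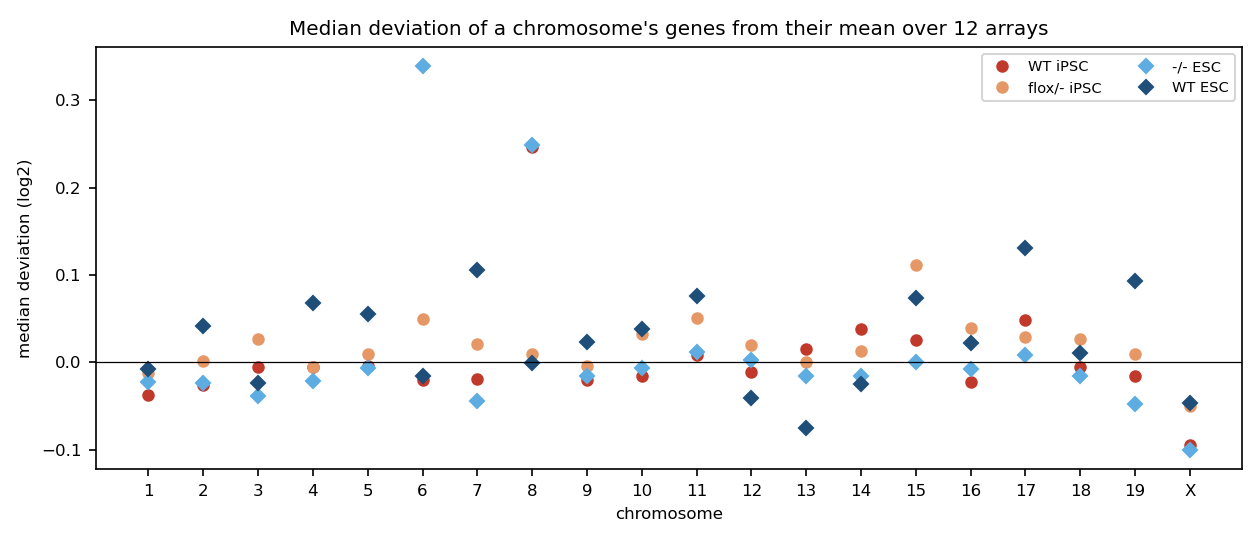
Median log2 deviation (vertical) of the genes of each chromosome from their mean over the 12 arrays, for the 2 iPSC arrays (circles) and the 2 ESC arrays (diamonds). Chromosome 6 stands out on -/- ESC at 0.34, and chromosome 8 on WT iPSC and -/- ESC at 0.25 each.

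The genes were also looked up in the DOX-treated and untreated fibroblasts, whose arrays did not choose them. Between 5 DOX and 3 MEF arrays limma called 2003 of 11999 genes (16.7%), 923 higher (7.69%) and 1080 lower (9.0%). Of the genes above ESC, 1236 were tested there, and 133 were higher under DOX (10.8%) and 28 lower (2.27%). Of the genes below ESC, 1319 were tested, and 84 were higher (6.37%) and 109 lower (8.26%). Over the genes kept in the comparison of iPSC and ESC these shares were 8.47% and 7.04%. The 30 genes with a gap of at least 0.5 above ESC had a median signal of 6.21 in MEF, and the 37 below had 8.90, beside 8.73 for all genes kept.

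Some named genes passed the test under DOX. Liph rose, with a log2 difference of 2.22 and a limma adjusted p = 0.0159, lost without the WT or the flox/- MEF array and at adjusted p = 0.0621 with genotype as a block. Coch fell by 2.53 (limma adjusted p = 0.00765) and Nkd1 by 1.30 (limma adjusted p = 0.00994), and both calls held when each of the 8 arrays was left out and with that block. Col4a1 (limma adjusted p = 0.0246) and Npr3 (limma adjusted p = 0.0239) also fell, each call lost without 4 or more of the 8 arrays in turn. Other genes moved against their order in iPSC and ESC. Krt8 (4.24, limma adjusted p = 0.0431), Spint2 (2.97, limma adjusted p = 0.0397) and Lama1 (2.86, limma adjusted p = 0.0489) lay below ESC and rose under DOX. Il6st lay above ESC and fell by 1.37 (limma adjusted p = 0.0301). Each of these 4 calls was lost without 5 or more of the arrays in turn and with the block, at limma adjusted p = 0.0842 to 0.141. Dnmt3l, Egr1, Egfl6, Zfp600 and Zfp982 did not pass.

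The least separated genes show how narrow the rule is. Above ESC, the nearest values of Cd2ap were 7e-05 apart and those of Mphosph9 0.00025. Just outside, Tbc1d19 and Ifnlr1 overlapped by 0.00037 and 0.00045. Below ESC, Ticam2 and Gm10190 were inside by 0.00013 and 0.00033, and Nr2c2 and Uchl5 outside by 1e-05 and 7e-05. Of the 2597 genes, 71 (2.73%) passed the filter through the state where they were high, with no value above the median in the other, 36 above ESC and 35 below.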

How the data were processed

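RNA was extracted with TRIzol and biotin-labelled, per the labels' protocols, and hybridised to Affymetrix gene arrays. The authors deposited log2 signals for 35512 probe sets on 12 arrays, from 3.11 to 13.99, of which 0 columns were left out. Their summary and normalization methods are not given in the sources used here. They were used as deposited, without further normalization. The platform annotation gave 1 symbol for 21789 probe sets, several for 1621 and none for 12102. Those with 1 symbol stood for 19938 genes, and for 999 genes with several probe sets the one with the highest mean was taken.

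iPSC and ESC were compared with limma 3.58.1 in R 4.3.3 on 4 arrays, with Benjamini-Hochberg adjustment over the 11074 genes kept, and DOX and MEF likewise on 8 arrays. Arrays of 1 state and different genotype stood as replicates, so p-values measure the spread between these arrays. The script was tested on simulated data. Alternatives were quantile normalization, other filters, every probe set, 7 or 12 arrays in the fit, an intensity trend, each array left out, and, between DOX and MEF, genotype as a block. Array signals have no sequencing depth, and the number of arrays limits the precision. Sequences are from RefSeq (GRCm38.p6).

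The members, the 29 gene lists and the set of numbered Zfp genes were chosen with earlier results of these data known. Genes were drawn by rule from the 15 widest gaps in each direction, up to 4 genes of each list, genes of the Mbd3, reprogramming, X, Y and Dlk1-Dio3 sets, those nearest a gap of 0, and the rest of a list or family where a pattern ran along it. Mir363 was chosen after its values were seen.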

Additional observations from a re-analysis of the deposited data

Results flagged for a closer look

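Among the 10 genes with a gap of at least 2-fold, the highest and lowest of the 5 DOX arrays were compared with the others by Dixon's test, which chance alone passes in about 1 of 20 groups. Ttpa in WT cells at day 8 stood apart, with 4.97 log2 units against 6.29 to 6.73 on the other DOX arrays. The labels of that array name both 4 and 8 days of DOX, and it was reused from an earlier series.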

How the results depend on the processing

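The count of 0 genes passing limma's adjusted p did not change under quantile normalization, 3 other choices of genes or probe sets, 7 or 12 arrays in the fit, an intensity trend, or with each array left out. The lowest adjusted p of any gene among the runs with arrays left out, quantile normalization or 7 arrays was 0.114. The unadjusted p under 0.05 counted 45 to 888 genes. The 522 alternative values of the 87 named genes outside ESC kept their direction, which the choice of genes fixes. Without a filter 5135 genes met the rule. With each array left out, 5704 to 8111 did and 98 to 216 genes had a gap of at least 2-fold, since fewer arrays bound each gene. Between DOX and MEF 186 to 3339 genes were called, and the cause was not tested. The call count was 186 without flox/- MEF, 470 without WT MEF, 490 without -/- MEF, 775 without WT day 11, 861 without flox/- day 4 and 3339 without WT day 8. In runs added after seeing the data, each array was left out in turn. This gave 8 to 13 MAPK genes below ESC, 109 to 149 Zfp genes above and 187 to 372 chromosome 6 genes below. For fibroblast genes it gave 2 to 20 below and 0 to 12 above. With genotype as a block, also added after seeing the data, which the WT and flox/- arrays allow between DOX and MEF, 563 genes were called there, 219 higher and 344 lower. The labels do not say that arrays of 1 genotype came from the same culture. No paired analysis was possible between iPSC and ESC, because WT is the only genotype in both and the block leaves no residual degrees of freedom, and replicate numbers follow accession order. Signals near the lower quartile of an array limit the folds of dim genes.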
